A study of Schizosaccharomyces pombe with 3 samples.

Results

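The 10 genes described here encode cytoplasmic factors that run translation in the fission yeast Schizosaccharomyces pombe. They are the eEF1A genes tef101, tef102 and tef103, the eEF2 genes eft201 and eft202, the eEF3 gene tef3, the eIF4A gene tif1, the eIF4G gene tif471, and the release factor genes sup35 (eRF3) and erf1 (eRF1). They were taken by symbol from the reference annotation, and all 10 were found among 5113 nuclear protein-coding genes; tif1 is also listed there as an older name of tif45, which was not used. The study sequenced 3 chromatin libraries, 1 per kind, from log-phase cells in rich medium with glucose. All 3 are labelled with the strain 972 h-. The bead control was untagged chromatin on beads without antibody. For the Pol II library, untagged chromatin was precipitated on Protein G beads with antibody 4H8, which binds the C-terminal repeat domain of the largest polymerase subunit. The Med7 library was chromatin of cells whose Med7, a subunit of the Mediator complex, carries a TAP tag, bound to IgG beads. The control lacks the tag and is not labelled as using IgG beads, so tag, beads and Med7 cannot be told apart in the Med7 folds. Nuclear reads numbered 632485 (control), 1688459 (Pol II) and 698768 (Med7). With 1 library per kind there is no replicate check and no p-value, and each fold describes these libraries.

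In elongation, eEF1A brings charged tRNAs to the ribosome, eEF2 moves the ribosome along the mRNA, and eEF3 is a fungal ATPase that helps to clear spent tRNAs from it. In initiation, the helicase eIF4A and the scaffold eIF4G act together at the 5' end of the mRNA. In termination, eRF1 reads the stop codons and the GTPase eRF3 works with it. Mediator passes signals from transcription factors at promoters to RNA polymerase II, which then travels through the gene body. Elongation factors are among the abundant proteins of growing yeast cells.

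Several of these genes are near-identical copies, and their sequences show what could be measured. Reads span 45 bases, and no read in the files began at a sequence found more than once in the genome. The eEF1A coding sequences, each of 1383 bp, differ at 25 positions in all. Each pair differs at 15 to 19 positions, which is 98.6% to 98.9% identity. The proteins of 460 residues from tef102 and tef103 are identical, and that of tef101 differs from both at 1 residue. The most variable 60 bases, coding bases 1291 to 1350 counted from the A of the start codon, show where placeable reads come from. They lie at chrIII:268130-268189 (minus strand), chrI:4096492-4096551 (plus strand) and chrII:626139-626198 (minus strand) of the assembly ASM294v3. Capitals mark the positions at which the 3 copies are not all the same.
tef101: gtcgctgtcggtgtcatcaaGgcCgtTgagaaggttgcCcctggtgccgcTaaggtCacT
tef102: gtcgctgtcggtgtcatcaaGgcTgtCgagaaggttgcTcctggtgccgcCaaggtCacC
tef103: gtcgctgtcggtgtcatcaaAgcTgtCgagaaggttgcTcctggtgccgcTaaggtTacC

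The eEF2 copies are closer still. Their coding sequences of 2529 bp differ at 11 bases (99.6% identity), they encode the same 842 residues, and the longest stretch without a difference is 587 bp. A read tells them apart only where it crosses one of these bases, as at coding base 1722. That base is shown within the 45 bases of chrI:2908486-2908530 (minus strand, eft201) and chrIII:539025-539069 (plus strand, eft202). The capital marks T1722C, with the base of eft201 first.
eft201: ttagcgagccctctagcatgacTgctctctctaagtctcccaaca
eft202: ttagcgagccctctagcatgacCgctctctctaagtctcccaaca

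Of the possible read placements in the transcripts, 34.1% were unique in tef101, 25.7% in tef102, 28.4% in tef103, 15.5% in eft201 and 16% in eft202. The share was 100% in tef3, tif1, tif471, sup35 and erf1. Promoter windows, from 500 bp before to 100 bp after the transcript start, were 92.6% to 100% unique. Reads that differ from the nearest other copy by a single base were kept in the files. In the coding sequences of the 5 copies, such placements held 55.0 control reads, in RPM (reads scaled to the nuclear read total of the library), per 1000 placements, against 51.5 where 3 or more bases differed and 41.5 over the whole genome. The 51.5 rests on 8 reads. By gene, the single-base value ran from 15.98 in eft201 to 73.51 in eft202. In the Pol II library the pooled values were 188.6 with a single differing base and 245.8 with 3 or more. Placements shared exactly with another copy held 0 reads in every library. All values below therefore come from the unique part of each gene.

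RNA polymerase II was well above the bead control in the bodies of the eEF1A genes, tef3 and tif1, and less so in the eEF2 genes. Under the main settings it was near the control in the release factor genes. A fold is the RPM of a library over that of the control in the same window, with the exact 95% interval for counting error in parentheses. To be called high, a gene had to reach 2-fold with an interval above 1; low calls needed 0.5-fold at most and an interval below 1. By this rule 7 of the 10 bodies were high, while over all protein-coding genes 7.16% of 5044 were high. The 7 include eft201 at 2.22-fold, from 15 control reads in the 15.5% of its placements that are unique. In the promoter window of eft201 and after its stop codon, the Pol II intervals include 1. No member was low, against 11.7% of all genes. With 0.5 reads added to each count, the median log2 fold of the members was 1.54, and that of all genes measured was -0.45. The members were chosen with earlier results known, so these counts describe them and test nothing.

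**Figure D1:**
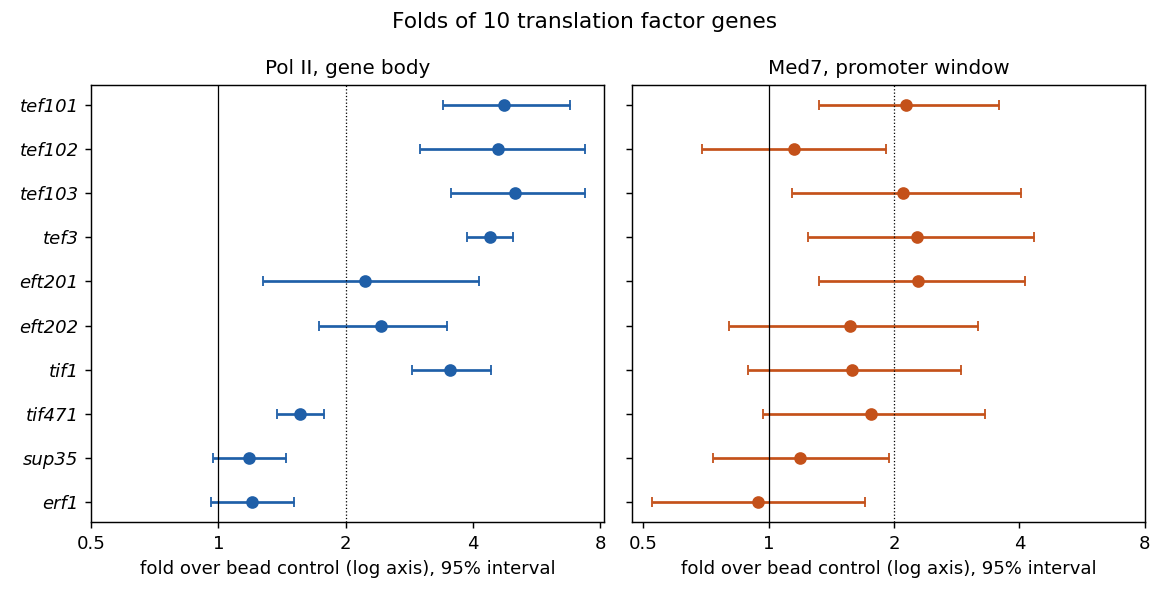
Fold over the bead control of each gene on a log axis, for Pol II in gene bodies (left) and Med7 in promoter windows (right); points are folds, bars their 95% counting intervals, and the dotted line is 2-fold. The eEF1A genes and tef3 stand between 4.38-fold and 5.04-fold for Pol II, and sup35 and erf1 close to 1.

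The 3 eEF1A genes stood side by side. Levels below are RPM per kb of unique placements, a scale on which the mean of the genome is 83 in any library. The body of tef101 (SPCC794.09C, chromosome III, 267955 to 269516) was at 113.0 in the control, 534.9 with Pol II and 86.2 with Med7. That of tef102 (SPAC23A1.10, chromosome I, 4095132 to 4096584) was at 97.8, 448.1 and 73.2. The third, tef103 (SPBC839.15C, chromosome II, 626004 to 627522), was at 125.1, 629.9 and 123.3. In each copy the Pol II library was several times the other 2, which were close to each other. The Pol II folds were 4.73 (3.40 to 6.77) for tef101, 4.58 (2.99 to 7.35) for tef102 and 5.04 (3.55 to 7.36) for tef103. They rest on 38, 23 and 34 control reads, and the intervals overlap, so no order among the copies is shown. Within the coding sequence the reads were spread evenly over the copies in the control, at 61.4, 55.1 and 66.3 RPM per 1000 placeable positions, from 24, 18 and 21 reads.

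The copies parted in the unique sequence behind the coding region. In the 300 bp after the stop codon 6 of the 10 members were high for Pol II, against 13.8% of all genes. The median fold of all genes in this window was 1.03, above the 0.735 of gene bodies. After its stop codon tef101 held 15 control and 240 Pol II reads and tef103 held 20 and 257, while tef102 held 25 and 110. The folds there were 5.98 (3.56 to 10.9) for tef101 and 4.80 (3.05 to 8.0) for tef103, against 1.65 (1.06 to 2.65) for tef102, whose interval lies below both others. At the start the order was another. In the promoter window Pol II was at 2.09-fold (1.41 to 3.20) in tef102, 2.62-fold (1.54 to 4.74) in tef103 and 1.38-fold (0.876 to 2.24) in tef101, with overlapping intervals. The annotation ends the tef102 transcript at its stop codon, with no 3' untranslated region. Of the tef101 window after the stop codon, 210 bp belong to efr3 on the other strand, and the body of efr3 was at 1.3-fold.

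The eEF3 gene tef3 (SPCC417.08, chromosome III, 1685645 to 1688951) gave the most precise value, since its whole body of 3307 bp is unique. Its level was 128.5 RPM per kb in the control, 563.0 with Pol II and 77.8 with Med7. Pol II was thus far above the control and Med7 below it. From 268 control and 3141 Pol II reads, the Pol II fold was 4.38 (3.87 to 4.98). It was 3.83 (3.17 to 4.64) in the first part of the coding sequence, 4.52 (3.80 to 5.41) in the second part, of equal length, and 6.87 (4.16 to 12.2) in the 300 bp after the stop codon. The 3' untranslated region of 142 bp held 191 Pol II reads against 5 in the control, which is 14.3-fold (6.01 to 44.5). The Pol II level there was 797.3 RPM per kb, against 638.0 in the second coding part, while the control was at 55.8 against 141.2, so most of the step in the fold was in the control. The interval of the 3' untranslated region lies above those of both coding parts, which overlap each other.

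The eIF4A gene tif1 (SPAC1006.07, chromosome I, 5085530 to 5087031) followed at 101.3 RPM per kb in the control, 358.3 with Pol II and 63.1 with Med7. Its Pol II fold was 3.54 (2.86 to 4.41). Its fold was higher towards its end, at 2.48-fold (1.83 to 3.42) in the first part of the coding sequence, 3.90-fold (2.71 to 5.80) in the second and 7.02-fold (4.03 to 13.4) after the stop codon. The last interval does not overlap the first. The median fold of all genes was also higher after the stop codon than in bodies. Between the coding parts of tif1 the Pol II level was nearly flat, at 326.5 and 336.1 RPM per kb, while the control went from 131.7 to 86.1. In tef3 the Pol II level went from 470.6 to 638.0, and the control from 123.0 to 141.2. Its partner tif471 (SPAC17C9.03, chromosome I, 4491952 to 4496578) was at 104.8, 163.7 and 68.3 RPM per kb. The Pol II fold of tif471 was 1.56 (1.38 to 1.77), with an interval wholly below that of tif1, although both proteins belong to the same initiation complex. After its stop codon tif471 was at 1.22-fold (0.756 to 2.04), and 150 bp of that window belong to pmc3 on the other strand.

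The release factor genes had the lowest Pol II folds. For sup35 (SPCC584.04, chromosome III, 1535399 to 1538011) the levels were 80.7 RPM per kb in the control, 95.3 with Pol II and 58.3 with Med7. For erf1 (SPAC1834.01, chromosome I, 4691780 to 4693738) they were 83.4, 99.8 and 65.3. The control and Pol II values were thus close in both genes. The folds were 1.18 (0.969 to 1.45) and 1.20 (0.957 to 1.51), with 1 inside each interval. With scaling by the median 1 kb bin they were 1.66 (1.36 to 2.03) and 1.68 (1.34 to 2.12). With duplicates counted once the lower bound was 1.01 for each. Whether Pol II lies above the control in these genes thus depends on the processing. Both still stood in the upper part of all genes, at 17.1% and 16.5% from the top, because the median gene was at 0.735-fold. In sup35 Pol II was at 0.573-fold (0.359 to 0.924) in the promoter window and 3.10-fold (1.41 to 8.05) after the stop codon, the latter from 7 control reads. Over the sup35 3' untranslated region of 487 bp, Pol II was at 1.895-fold (1.08 to 3.55), from 15 control reads. A noncoding RNA gene on the other strand covers 1826 bp of erf1, and reads of the 2 cannot be separated. Noncoding RNA genes overlap the transcript or promoter window of every other member too, for example 882 bp of the tef102 transcript.

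**Figure D2:**
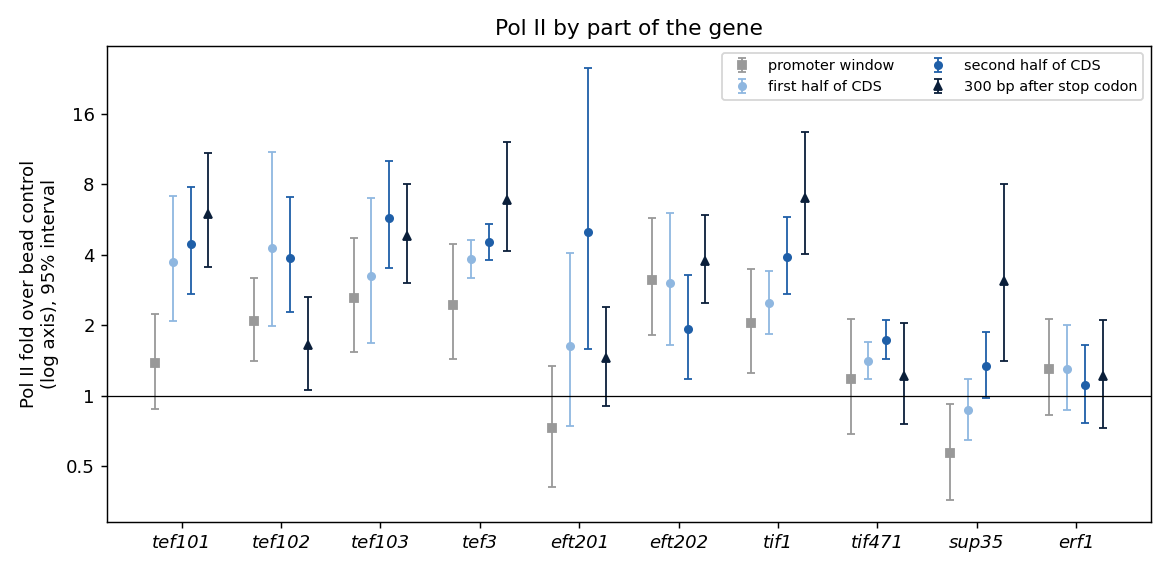
Pol II fold over the bead control on a log axis in 4 parts of each gene, with 95% counting intervals. In tef3 and tif1 the fold is higher after the stop codon than in the promoter window, while tef102 and eft201 are at 1.65 and 1.45 there.

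In order of Pol II fold the bodies were tef103, tef101, tef102, tef3, tif1, eft202, eft201, tif471, erf1 and sup35. Every pair of neighbours in this order has overlapping intervals. Several pairs farther apart overlap as well, such as tef3 and eft201. The intervals of tef3 and eft202 do not overlap, nor do those of tif1 and tif471. The control was not flat over these bodies, with 58.4 RPM per kb in eft201 and 150.6 in eft202 as extremes. The part of the control level in the folds was not tested.

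The eEF2 genes differed from each other in the control itself. The body of eft201 (SPAC513.01C, chromosome I, 2907643 to 2910261) was at 58.4 RPM per kb in the control, 129.6 with Pol II and 67.1 with Med7. That of eft202 (SPCP31B10.07, chromosome III, 537290 to 539922) was at 150.6, 364.7 and 71.7. In the control and Pol II libraries eft202 was well above eft201, and in the Med7 library the levels were close. The Pol II folds nevertheless came out alike, at 2.22 (1.28 to 4.13) for eft201 and 2.42 (1.73 to 3.47) for eft202, since control and Pol II reads were both fewer on eft201. Only 15 control reads support the first value.

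Reads that cross the 11 differing bases could be compared directly, as both copies offer 546 such placements. In the control 8 such reads lay on eft201 and 25 on eft202, a share for eft201 of 24.2% (exact Clopper-Pearson interval 11.1 to 42.3). The Pol II library held 58 and 164, a share of 26.1% (20.5 to 32.4). The Med7 library held 9 and 12, a share of 42.9% (21.8 to 66). Control and Pol II reads thus lay mostly on eft202, by about the same share. At the 5 single-base differences within the gene, the control held 4 reads on eft201 and 22 on eft202, and the Pol II library 54 and 153. Near the start codon, where 4 bases differ, the control held 4 and 3. Whether the sequenced strains carry the reference bases at these sites was not tested, and the folds of the 2 copies depend on it.

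**Figure D3:**
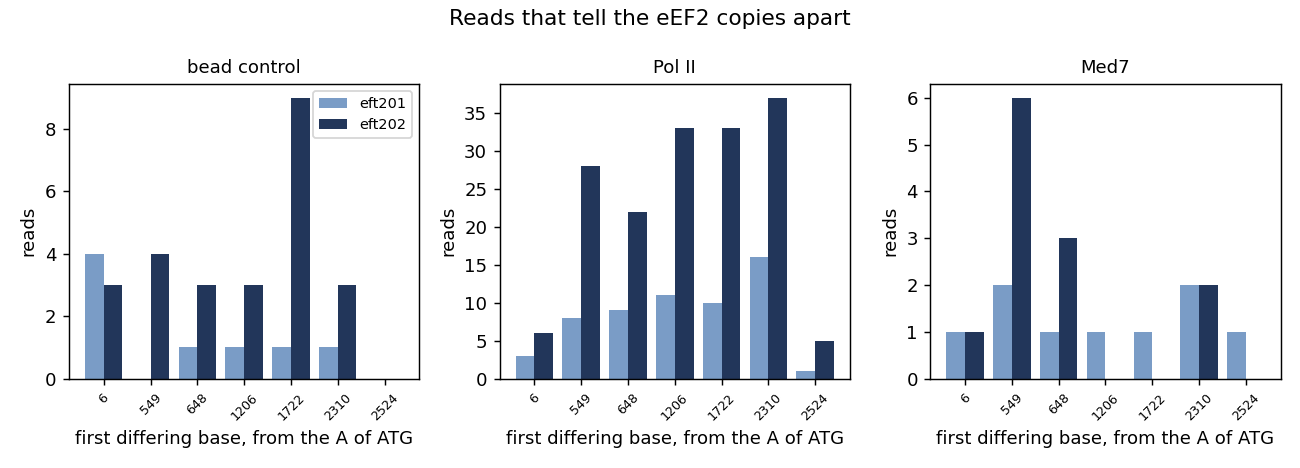
Reads covering each of 7 stretches with differing bases, on eft201 (light) and eft202 (dark), in the 3 libraries; the horizontal axis gives the first differing base of the stretch, counted from the A of the start codon. In the Pol II library eft202 has more reads than eft201 in every stretch, for example 33 against 10 at base 1722.

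The flanks of the eEF2 genes lie mostly outside the sequence they share, with 95.4% and 95.8% unique placements in the promoter windows and 96.3% in both windows after the stop codon. Both promoter windows reach the 4 differing bases near the start codon, so a part of their reads depends on those bases. Pol II differed between the flanks. In the promoter window eft202 held 15 control and 125 Pol II reads, and eft201 held 19 and 37. The folds were 3.12 (1.82 to 5.73) for eft202 and 0.728 (0.408 to 1.34) for eft201, with intervals that do not overlap. After the stop codon they were 3.77 (2.5 to 5.94) and 1.45 (0.907 to 2.40), again without overlap. In the 500 bp past the transcript ends, where all placements are unique, they were 3.79 (2.62 to 5.67) and 1.17 (0.769 to 1.83). The last 413 bp of the upstream neighbour tcb2 lie in the eft202 promoter window, and the tcb2 body was at 1.06-fold. Noncoding RNA genes on the other strand share 429 bp with the eft201 promoter window and 354 bp with that of eft202. Control reads were similar in these flanks, at 25 and 23 after the stop codons.

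The promoters of both eEF2 genes are shown because Pol II differed over them. Each runs from 250 bp before to 49 bp after the transcript start, at chrI:2910212-2910511 (minus strand, eft201) and chrIII:537040-537339 (plus strand, eft202), along the gene. Capitals mark matches to the motifs TATAAA and ACCCTACC, of which eft201 holds none.
eft201: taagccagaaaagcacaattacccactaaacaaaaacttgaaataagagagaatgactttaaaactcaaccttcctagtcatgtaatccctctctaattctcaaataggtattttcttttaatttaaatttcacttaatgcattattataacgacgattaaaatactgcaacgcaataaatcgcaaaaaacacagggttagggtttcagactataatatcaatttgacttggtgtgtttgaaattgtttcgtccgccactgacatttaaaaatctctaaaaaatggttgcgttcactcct
eft202: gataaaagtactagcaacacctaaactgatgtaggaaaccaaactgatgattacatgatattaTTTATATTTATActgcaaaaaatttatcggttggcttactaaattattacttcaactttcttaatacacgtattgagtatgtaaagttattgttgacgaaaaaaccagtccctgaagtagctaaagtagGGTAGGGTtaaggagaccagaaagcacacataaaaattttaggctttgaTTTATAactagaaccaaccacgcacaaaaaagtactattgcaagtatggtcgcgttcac

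Such windows were searched on both strands for TATAAA (the TATA box), CAGTCACA (the HomolD box, which serves fission yeast ribosomal protein genes as a core promoter element) and ACCCTACC (part of the HomolE box of the same genes). HomolD was found in 5 of the 10 members and in 2.68% of 5112 promoters. The 5 are tef101, tef102, tef103, tef3 and tif1, which are also the 5 with the highest Pol II folds. The interval of tif1 overlaps those of eft201 and eft202, so this order is not settled. Elsewhere the box stood in 84 of 131 ribosomal protein genes (symbols rps and rpl), and in 48 genes with other symbols. The 48 were set apart by symbol only, so they can hold ribosomal protein genes named otherwise. As both strands were searched, they can also hold genes divergent from a ribosomal protein gene. Of the 84, 71.4% were high for Pol II, against 69.1% of all rps and 65.8% of all rpl genes. Of the 48, 18 were high, against 7.16% of all protein-coding genes. TATAAA was found in 4 members (tef102, eft202, tif1 and sup35) and 48.1% of promoters, and ACCCTACC in 1 member, eft202, and 1.62% of promoters. No 2 matches overlapped in the members. A match is only a run of letters, and its use was not tested. The 60 bases around each HomolD match, in capitals, run along the gene from chrIII:269527-269586 (minus), chrI:4095050-4095109 (plus), chrII:627548-627607 (minus), chrIII:1685480-1685539 (plus) and chrI:5085450-5085509 (plus). The box starts 44, 56, 59, 139 and 54 bp upstream of the transcript start, respectively.
tef101: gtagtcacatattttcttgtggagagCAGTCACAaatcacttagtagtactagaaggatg
tef102: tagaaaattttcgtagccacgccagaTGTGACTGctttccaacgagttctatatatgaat
tef103: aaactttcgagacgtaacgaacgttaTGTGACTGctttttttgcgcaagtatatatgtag
tef3: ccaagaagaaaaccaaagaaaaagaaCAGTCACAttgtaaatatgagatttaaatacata
tif1: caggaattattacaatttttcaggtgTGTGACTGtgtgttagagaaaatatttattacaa

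**Figure D4:**
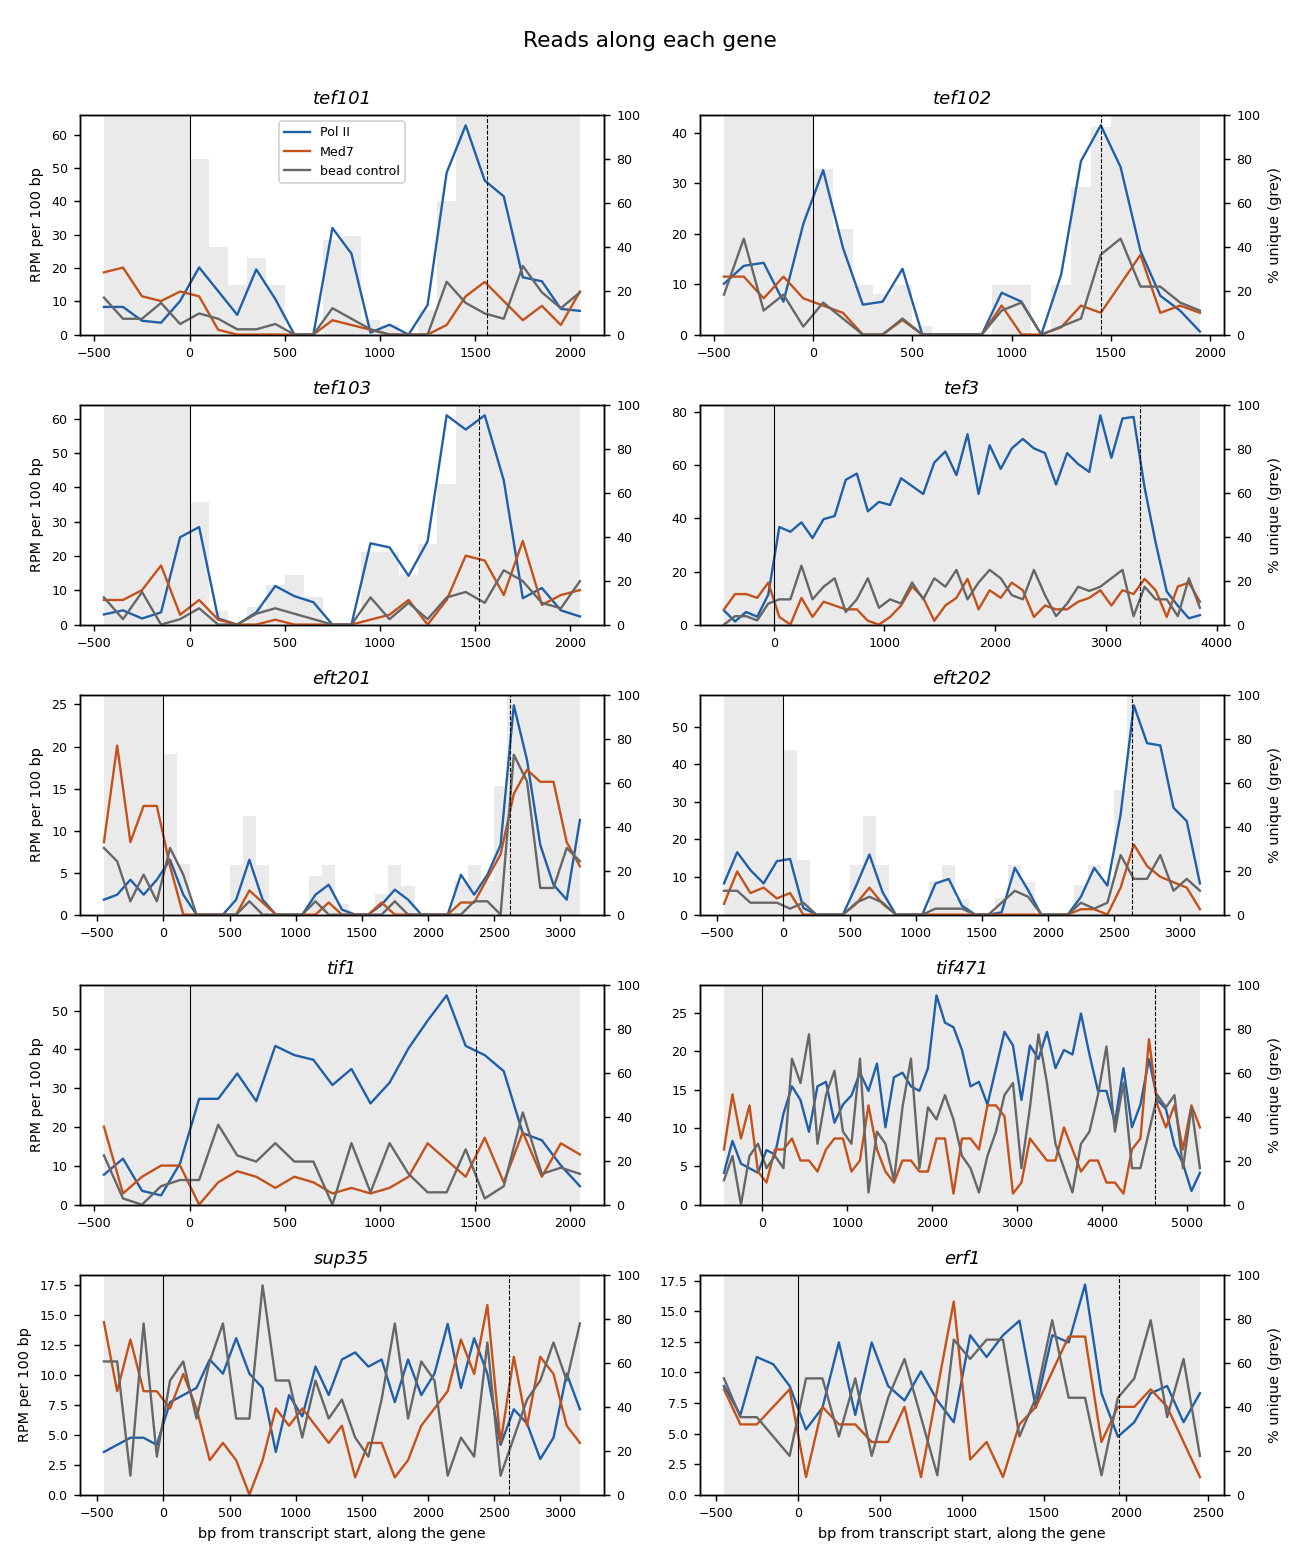
RPM per 100 bp bin along each gene for Pol II (blue), Med7 (orange) and the bead control (dark grey line), from 500 bp before the transcript start (solid line) to 500 bp past its end (dashed line); grey areas show the percentage of unique placements. In tef3 and tif1 Pol II stays above the control through the whole body, and in the copies signal appears only where the sequence is unique.

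Over the promoter windows Pol II was high in 5 members (tef102, tef103, tef3, eft202 and tif1), against 4.51% of all genes. These windows reach 100 bp into the transcript. The highest was eft202, and sup35 was the only one with an interval below 1.

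Med7 was above the control in 9 of 10 promoter windows, and over all genes 4139 of 5032 promoters were above it. Of the members 4 were high, against 14.4% of all promoters, and the median promoter was at 1.38-fold. The 4 were eft201, tef3, tef101 and tef103. The level at eft201 was 52.5 RPM per kb in the control, 38.2 with Pol II and 120.2 with Med7. It was the only member with Pol II below the control level and a high Med7 call, though its Pol II interval includes 1. Pol II below the control was the usual state of promoters. The median Pol II fold of all genes in this window was 0.762, with 1395 of 5033 above 1. The Med7 fold of eft201 was 2.29 (1.32 to 4.12). In a narrower window, from 250 bp before to 50 bp after the start, it was 3.50 (1.48 to 9.51), from 7 control and 27 Med7 reads. For eft202 the levels were 41.3, 128.7 and 64.9 RPM per kb, and Med7 was at 1.57-fold (0.802 to 3.19). The eEF2 copies thus had opposite orders of Pol II and Med7 over their promoters, but their Med7 intervals overlap and that of Pol II at eft201 includes 1.

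Among the other members, tef3 held 42.2 RPM per kb in the control, 103.6 with Pol II and 95.6 with Med7, with Med7 at 2.27-fold (1.24 to 4.33). The eEF1A genes tef101 and tef103 were at 2.14-fold (1.32 to 3.56) and 2.10-fold (1.14 to 4.03). A noncoding RNA gene on the other strand shares 601 bp with the tef101 window. The third copy, tef102, was at 1.15-fold (0.693 to 1.92) from 30 control and 38 Med7 reads, and 517 bp of its window lie in the gene rbm8. In the narrower window, tef3 was at 3.11-fold (1.3 to 8.54), tef103 at 2.57-fold (0.966 to 7.95), tef102 at 2.01-fold (0.877 to 5.02) and tef101 at 1.81-fold (0.773 to 4.58). With eft201, tef3 was the only member high there, of 9 measured. Over all genes 1024 of 4598 promoters were high in that window, about the same share. The initiation factor genes tif471 and tif1 were at 1.76-fold (0.971 to 3.30) and 1.59-fold (0.891 to 2.90), with 354 bp of the first window in lys7. In the narrower window they were at 1.24-fold (0.530 to 2.97) and 1.71-fold (0.722 to 4.36). Lowest were sup35 at 1.19-fold (0.733 to 1.95) and erf1 at 0.942-fold (0.523 to 1.70), and 549 bp of the erf1 window lie in vrg4. All 10 Med7 intervals overlap one another, so no order among the promoters is shown. The 4 high calls were lost when reads were scaled by all aligned reads, mitochondrial ones included, since 23.8% of Med7 reads and 6.84% of control reads were mitochondrial. The folds of the 4 then lay under the 2-fold line, at 1.87 in eft201, 1.85 in tef3, 1.75 in tef101 and 1.71 in tef103. The calls were lost too when reads were counted at their 5' ends instead of at the fragment centre, with 1.98 in eft201, 1.91 in tef101 and tef103 and 1.65 in tef3.

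In gene bodies 9 of the 10 members had Med7 below the control, and the exception was eft201 at 1.15-fold (0.553 to 2.43). No body was high, against 0.516% of all genes, and 1, that of eft202, was low, against 0.556% of all genes. The fold was 0.605 (0.498 to 0.734) in tef3, 0.623 (0.448 to 0.861) in tif1, 0.652 (0.545 to 0.777) in tif471 and 0.476 (0.267 to 0.826) in eft202. Over all genes 1838 of 5034 were above 1, with a median of 0.928-fold. After the stop codon of sup35 Med7 was at 3.50-fold (1.48 to 9.51), from 7 control and 27 Med7 reads, and no other member had an interval above 1 there. Its Pol II fold in that window rests on the same 7 control reads. Over the sup35 3' untranslated region of 487 bp, Med7 was at 2.175-fold (1.16 to 4.28), from 15 control reads. The share of all genes high for Med7 after the stop codon was not counted.

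**Figure D5:**
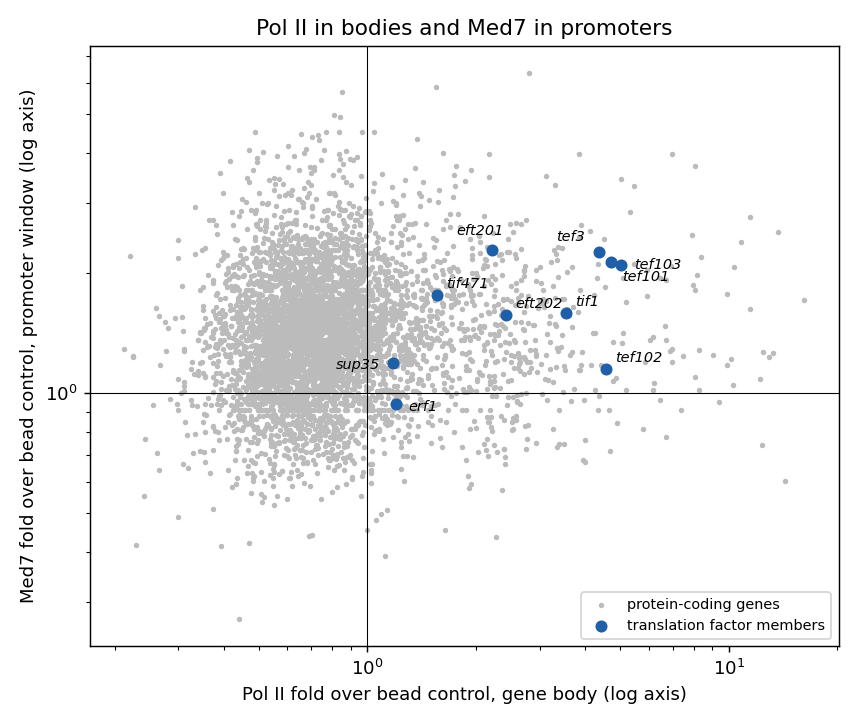
Each protein-coding gene (grey) and each of the 10 members (blue) by its Pol II fold in the body and its Med7 fold in the promoter window, both on log axes. The eEF1A genes, tef3 and tif1 lie far to the right, with tef102 at 1.15-fold for Med7.

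Most other translation factors were not high for Pol II; the difference from the members was not tested. By product name the annotation held 42 of them, all measured. Of these, 5 bodies were high and 3 low for Pol II, with a median log2 fold, on the scale with 0.5 reads added, of -0.16. The high ones were tif5 (eIF5) at 3.13-fold (2.51 to 3.94), tif51 (eIF5A) at 2.5-fold (1.97 to 3.20), tif301 (eIF3a) at 2.49-fold (2.12 to 2.95), tif11 (eIF1A) at 2.12-fold (1.62 to 2.83) and sui1 (eIF1) at 2.10-fold (1.52 to 2.96). The lowest were pth4 at 0.499-fold, the eIF3j gene tif310 at 0.455-fold and rrf1 at 0.411-fold. The list still holds factors of bacterial type, among them tuf1, tsf1, mti2 and rrf1, which its filter on the word mitochondrial did not remove. Being made by product name, it also holds tif6, an initiation factor-like ribosome biogenesis protein, and cdc123, an eIF2 assembly protein. Med7 was high at 7 of the 42 promoters, or 16.7%, near the 14.4% of all promoters. The highest were tif6 at 2.88-fold (1.64 to 5.30), sui1 at 2.78-fold (1.49 to 5.51) and dom34 at 2.78-fold (1.49 to 5.51). In the ribosomal protein genes 38 of 55 small-subunit and 50 of 76 large-subunit bodies were high for Pol II, with median log2 folds of 1.24 and 1.09. Taking Pol II in the body and Med7 at the promoter as 2 coordinates, the genes nearest to tef3 among 4896 were rps13 (4.34-fold and 2.11-fold), rpl22 (4.53-fold and 2.44-fold) and mpg1 (4.12-fold and 2.55-fold). Nearest to tif1 were the glucanosyltransferase gene gas1 (3.62-fold and 1.57-fold), odr1 (3.57-fold and 1.62-fold) and SPAC26H5.09C (3.70-fold and 1.64-fold).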

How the data were processed

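The authors deposited lists of aligned reads for 3 libraries, with the position and strand of 1 read per row and no normalisation. Per the submitters' processing notes Bowtie 0.12.7 was used, with its role, the build and the mismatches allowed not given in the sources used here. In every library 0 of the 45-base reads began at a sequence found more than once in ASM294v3 (RefSeq), against 122 to 306 after a shift of 1 base either way, so coordinates were read as 1-based in that assembly. The files held 678947 (control), 1829877 (Pol II) and 917064 (Med7) reads. Scaling totals for RPM, nuclear reads outside the ribosomal DNA, were 630825, 1687058 and 696101.

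Each read was counted 72 bp inside its 5' end, which is 0.5 of the 145 bp with the highest strand cross-correlation. That correlation was 0.0654 for Pol II but 0.0034 and 0.00478 for control and Med7. Windows needed 20 reads in the 2 libraries together and no minimum of unique sequence. Intervals cover counting error only, because each group has 1 library. PCR duplicates (12.9% to 17.0% of nuclear reads) were kept in the main counts. They are not independent molecules, so the intervals can be too narrow even for counting error. The measured bodies held a median of 96 control reads. The rule for high and low calls was also run on simulated independent counts. These held no duplicates, so that run cannot show how the rule behaves on these reads. Named were all members, the extremes of the other factors and the nearest genes of tef3 and tif1. Members and lists were chosen with earlier results of these data known; the window after the stop codon and the count by mismatches were added after seeing the data. Alternatives covered scaling, duplicates, read position, unique share, read minimum and window limits. Intervals came from scipy 1.17.1, tables from pandas 2.3.3 and numpy 2.4.6, and figures from matplotlib 3.10.9, under Python 3.11.15.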

Additional observations from a re-analysis of the deposited data

How the results depend on the processing

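No paired analysis was possible because each group has 1 library. The 7 members high for Pol II became 2 (tef3 and tif1) when 90% unique placements were required, since only 5 members were then measured. The 4 members high for Med7 became 0 with scaling by all aligned reads and 0 with reads counted at their 5' ends, and 2 of 9 in the narrower window. Of all promoters, 627 of 5032 were high with reads at their 5' ends and 1024 of 4598 in the narrower window. Over all genes, scaling by the median 1 kb bin raised the 361 bodies high for Pol II to 589, lowered the 592 low ones to 76, and raised the other factors from 5 to 9. The low bodies were 340 with duplicates counted once and 951 over coding sequence only. Scaling by all aligned reads lowered the promoters high for Med7 from 727 to 269, and those of the other factors from 7 to 4. The 13 promoters low for Med7 became 43 with that scaling, 7 with at least 50 reads and 40 in the narrower window. Median-bin scaling moved the median log2 Pol II fold of all bodies, here with no reads added, from -0.44 to 0.05, and put tif471 at 2.19-fold, sup35 at 1.66-fold and erf1 at 1.68-fold. The intervals of sup35 and erf1 then lay above 1, and also with duplicates counted once. In every alternative run all 10 body folds for Pol II stayed above 1 (lowest 1.07, in sup35), while the Med7 promoter folds of tef102, sup35 and erf1 crossed 1. The promoter windows of the members held 15 to 32 control reads, which keeps the Med7 intervals wide.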
